A study of Homo sapiens with 10 samples.

Results

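Antisense long noncoding RNAs are long transcripts that code for no protein and are read from the strand opposite a named gene, the sense gene. Some start next to the sense gene's own start and run away from it, and others run through its exons or introns. Members of the class are known for holding or releasing chromatin factors at their own locus, for pairing with the sense RNA, and for binding proteins or microRNAs elsewhere, and many have no known function. RBM4, the gene knocked out here, encodes an RNA-binding protein known for its part in alternative splicing and in translation.

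The 286 antisense RNAs described here were chosen by name and level out of 58051 gene rows of the paired-end table. They are the autosomal genes whose symbol ends in -AS1 (273), -AS2 (12) or -AS3 (1) and whose mean over the 8 paired-end libraries was at least 1 CPM (a count scaled to the total count of its library). A further 1460 autosomal symbols of this form lay under 1 CPM. All 286 passed the minimum count of the fit. The members just inside the limit were TOB1-AS1 at 1.01 CPM, MAGI2-AS3 at 1.01 CPM and NAPA-AS1 at 1.02 CPM, and those just outside were HHIP-AS1 (0.998 CPM), ILRUN-AS1 (0.994 CPM) and DLGAP1-AS1 (0.993 CPM). The level therefore chose the members, and a gene that is low in wild type can pass the limit through its knockout libraries. Likewise, a gene that is low in the knockout can pass it through its wild type libraries. In GENCODE 29, 212 of the 286 carry the type antisense, and 3 (KRT10-AS1, KCNJ5-AS1 and CCDC28A-AS1) carry the type protein-coding, so the symbol does not make every member a noncoding RNA.

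The cells were HAP1, a near-haploid human line derived from KBM-7, a leukaemia line. The 3 paired-end groups were wild type HAP1 (n = 3), RBM4 KO clone 1 (n = 3) and RBM4 KO clone 2 (n = 2). One wild type library and 1 library of an RBM4 KO clone were also sequenced single-end, and the labels do not say which clone that was. Each knockout group is 1 clone, so a difference from wild type in 1 clone and a property of that clone cannot be told apart. Nothing in the labels says that replicates came from separate cultures, and the p-values therefore reflect variation among these libraries that may be technical only.

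Total counts lay between 33192095 and 55617525 per paired-end library. RBM4 had 77.0 to 79.6 CPM in wild type and 22.3 to 26.0 CPM in the 5 knockout libraries (log2 fold change -1.70, SE 0.048, adjusted p = 1.11e-10, edgeR's quasi-likelihood test). Of 8 haematopoietic markers, all 8 stayed under 1 CPM in every paired-end library (highest 0.171 CPM), although the parent line is leukaemic. Of 4 fibroblast markers 3 did so, and COL1A1 had 12.9 to 26.8 CPM.

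Genes on opposite strands can share exon bases, and whether counting used strand is not stated by any source used, so reads of a member and its sense gene may not have been told apart. In GENCODE 29, 220 members share exon bases with the sense gene on the other strand (in these a median of 10.3% of the member's exon bases, and at least 75% in 6 members). Another 30 overlap the span of the sense gene without shared exon bases. A head-to-head arrangement, with starts within 1 kb on opposite strands and no shared exon bases, was found for 28, and in 9 of these the spans overlap because the member starts inside the sense gene. Of the other 8, 3 had another arrangement, 2 (FAM131B-AS2 and HILPDA-AS1) lie on the same strand as the named gene, 1 is tail to tail, and 2 (HOXB-AS1 and HOXD-AS2) are named after a gene cluster and have no sense gene row. The library kit marks strand, per the labels' protocols.

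The start regions of 5 members are shown because they cover a start shared with a sense gene (MNX1-AS1, KTN1-AS1, FBXL19-AS1, KMT2E-AS1) or a member that rose without one (TNS2-AS1). Each window holds 250 bases before and 50 bases after a start in RefSeq on GRCh38.p14, printed 5′ to 3′ on the member's strand. Capitals mark GC boxes (GGGCGG or CCGCCC) and CCAAT boxes (CCAAT or ATTGG), each searched on both strands. The windows are chr7:157010607-157010906 (plus strand) for MNX1-AS1, chr14:55580043-55580342 (minus strand) for KTN1-AS1, chr16:30923220-30923519 (minus strand) for FBXL19-AS1, chr7:105014092-105014391 (minus strand) for KMT2E-AS1 and chr12:53054389-53054688 (minus strand) for TNS2-AS1. 
MNX1-AS1: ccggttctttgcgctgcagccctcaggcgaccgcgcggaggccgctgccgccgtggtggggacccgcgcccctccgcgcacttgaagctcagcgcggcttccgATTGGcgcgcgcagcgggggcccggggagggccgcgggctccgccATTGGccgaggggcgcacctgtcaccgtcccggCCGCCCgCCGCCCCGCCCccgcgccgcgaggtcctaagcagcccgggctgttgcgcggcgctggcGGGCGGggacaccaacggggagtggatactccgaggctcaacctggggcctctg
KTN1-AS1: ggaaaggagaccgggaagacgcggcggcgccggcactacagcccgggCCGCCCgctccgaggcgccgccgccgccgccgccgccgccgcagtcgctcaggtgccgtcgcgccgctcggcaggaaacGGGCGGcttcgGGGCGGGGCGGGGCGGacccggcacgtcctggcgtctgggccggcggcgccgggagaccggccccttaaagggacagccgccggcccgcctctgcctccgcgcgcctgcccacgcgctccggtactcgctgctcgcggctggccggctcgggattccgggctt
FBXL19-AS1: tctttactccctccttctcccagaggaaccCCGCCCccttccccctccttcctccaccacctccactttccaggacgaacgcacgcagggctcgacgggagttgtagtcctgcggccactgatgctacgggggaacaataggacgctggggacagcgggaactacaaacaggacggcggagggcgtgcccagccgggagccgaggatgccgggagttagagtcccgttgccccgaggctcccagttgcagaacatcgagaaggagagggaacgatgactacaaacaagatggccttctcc
KMT2E-AS1: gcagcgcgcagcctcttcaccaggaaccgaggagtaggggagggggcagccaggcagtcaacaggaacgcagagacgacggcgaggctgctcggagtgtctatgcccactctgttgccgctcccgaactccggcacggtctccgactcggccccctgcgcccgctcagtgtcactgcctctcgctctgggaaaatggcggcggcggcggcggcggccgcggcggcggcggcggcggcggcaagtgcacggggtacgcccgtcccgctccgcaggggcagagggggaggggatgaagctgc
TNS2-AS1: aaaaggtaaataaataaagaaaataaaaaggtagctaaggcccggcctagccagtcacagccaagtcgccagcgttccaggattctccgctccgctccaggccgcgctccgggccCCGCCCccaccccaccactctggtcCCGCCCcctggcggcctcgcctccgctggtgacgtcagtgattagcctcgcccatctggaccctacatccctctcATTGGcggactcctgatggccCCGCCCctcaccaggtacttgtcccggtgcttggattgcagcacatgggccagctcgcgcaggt
The MNX1-AS1 window shared 293 bases with a start window of MNX1, the KTN1-AS1 window 214 with KTN1, the FBXL19-AS1 window 198 with FBXL19 and the KMT2E-AS1 window 163 with KMT2E. MNX1-AS1 and KTN1-AS1 fell in the knockout and FBXL19-AS1 and KMT2E-AS1 rose, so a shared start window went with either direction in these 4 pairs. Over the 226 members with a window in the table, 63.2% of 280 windows held a GC box, against 45.0% of all 35116 windows. A CCAAT box was in 28.6% of the members' windows and 34.6% of all, and a TATA box (TATAAA or TTTATA, both strands) in 4.6% and 11.5%. The windows of members that rose did not stand far from those not called: 61.9% of 42 and 63.7% of 234 held a GC box. The median GC content was 66.0% in the members' windows and 58.7% in all windows.

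In wild type the members were mostly rare RNAs. They took 0.225% to 0.233% of all counts in the wild type libraries, 0.234% to 0.254% in clone 1 and 0.243% to 0.245% in clone 2. By mean level, 79 members had 1 to 2 CPM, 159 had 2 to 10 CPM and 48 had 10 CPM or more. The rarest had 340 counts over the 8 libraries and the lowest single value was 14 counts, and the median coefficient of variation over the wild type libraries was 9.68%. Per kilobase of exon, the most abundant in wild type were VPS9D1-AS1 (23.2 CPM per kb), RNF207-AS1 (21.6), FGD5-AS1 (19.6), SNTG2-AS1 (19.6), OIP5-AS1 (19.3), PITPNA-AS1 (17.9), SLC9A3-AS1 (14.9) and ELFN1-AS1 (14.6). OIP5-AS1, the human counterpart of the conserved RNA Cyrano, took 9.47% of the members' counts. Its level was 262, 253 and 220 CPM in wild type, 211, 199 and 214 CPM in clone 1 and, for clone 2, 234 and 222 CPM. Clone 1 lay below wild type, and clone 2 overlapped wild type. OIP5-AS1 was not called for the mean of the clones (adjusted p = 0.0612, edgeR's quasi-likelihood test).

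The levels of members and of their sense genes showed little relation. Across 263 pairs with both genes tested, Spearman's rho of the wild type CPM per kb was 0.06 (across genes, which are not independent replicates). The sense gene was higher per kb in most pairs, with a median of 4.52 times the antisense level, and the antisense RNA was higher in 58 pairs. The plot of both levels shows this scatter in each arrangement.

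**Figure D1:**
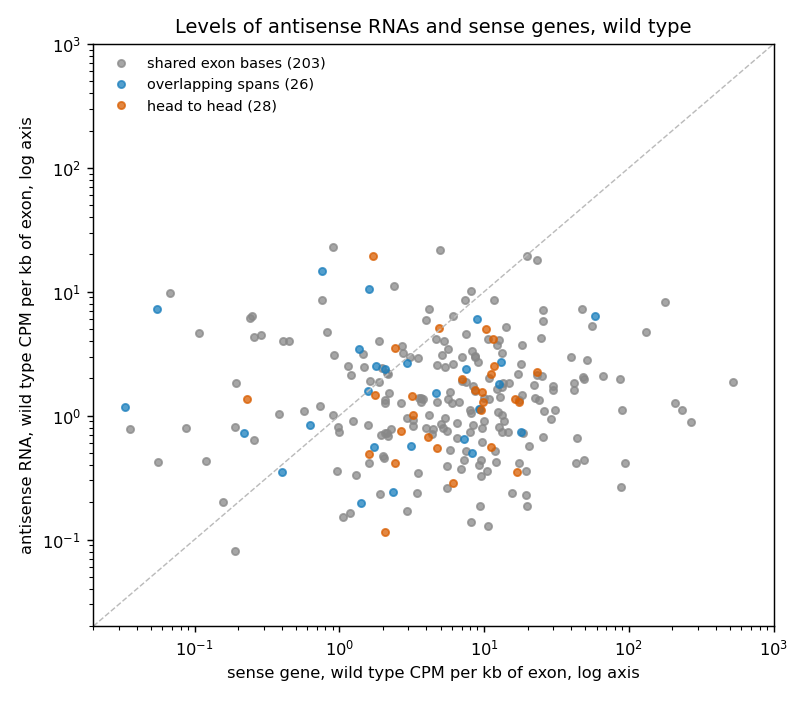
Wild type level of each antisense RNA (vertical) against its sense gene (horizontal), both as mean CPM per kb of exon on log axes, by arrangement, with the line of equal level dashed. Most points lie under the line: over all 263 pairs, 6 of which have other arrangements and are not drawn, the antisense RNA was higher in 58.

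In the knockout, more antisense RNAs rose than fell. Against the mean of the clones, 44 members rose and 6 fell (15.4% and 2.10% of 286), while 9.87% of all 20747 features (genes and repeat families) rose and 8.09% fell. Called means an adjusted p under 0.05 in edgeR's quasi-likelihood test, adjusted over all features. Called members made up 17.5%, close to the 18.0% of all features, while the split by direction was further from even: 88.0% of called members and 54.95% of called features rose. The median log2 fold change was 0.13 over the members and 0.00 over all features, and 72.0% of the members and 50.4% of all features had a positive value. Most rises were small: 3 members rose and 1 fell by at least 2-fold among those called. The 3 (SLIT3-AS2, DLGAP1-AS2 and RUNDC3A-AS1) lay under 1 CPM in every wild type library and so met the limit on the mean through their knockout libraries. The 1 that fell, PKN2-AS1, met it through its wild type libraries. In all, 22 of the 286 members had a wild type mean under 1 CPM, and 7 of these are among the 44 that rose. In bulk RNA, a change in the level per cell and a change in the share of cells with the RNA cannot be told apart.

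The counts had the same direction in each clone. In clone 1, 38 members rose and 5 fell (16.0% of all features were called in either direction), and in clone 2, 22 rose and 3 fell (10.8%). Both comparisons use the same wild type libraries. Called the same way in both clones were 16 members that rose (5.59%) and 2 that fell (0.699%), against 4.42% and 3.09% of all features. Every knockout library lay above every wild type library in 57 members (13.5% of all features) and below in 8 (11.8%).

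By the medians, rises were largest among rare members. At 1 to 2 CPM, 13 of 79 members rose and none fell by edgeR's test (2 were lower at an unadjusted p under 0.05, none by DESeq2), with a median log2 fold change of 0.22 against 0.05 for all genes at that level, and the limit of 1 CPM can favour rises there. All genes at 1 to 2 CPM had 154 that rose and 83 that fell of 1445 (16.4% called, 16.46% of members). Between 2 and 5 CPM, 13 rose and 3 fell of 114 (median 0.13, all genes 0.07). All genes at that level had 281 that rose and 106 that fell of 1669 (23.19% called, 14.04% of members). Between 5 and 10 CPM, 10 rose and 1 fell of 45 (0.10, all genes 0.07), and between 10 and 20 CPM, 5 rose and 1 fell of 28 (0.12, all genes 0.03). All genes at 5 to 10 CPM had 249 that rose and 93 that fell of 1426 (23.98% called, 24.44% of members). At 10 to 20 CPM, 319 genes rose and 182 fell of 1943 (25.78% called, 21.43% of members). At 20 CPM or more, 3 rose and 1 fell of 20, and the median was 0.01 against -0.02. All genes at that level had 766 that rose and 1088 that fell of 8408 (22.05% called). From 1 to 20 CPM, rises thus outnumbered falls among all genes too. They made up 63.67% to 72.81% of called genes and 81.25% or more of called members, by level. Over all members of at least 2 CPM, 31 rose and 6 fell of 207.

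Base composition moved with the result. Across genes, the level in a library relative to the mean followed GC content with Spearman's rho of -0.53, -0.45 and -0.35 in the wild type libraries, 0.36, -0.06 and 0.52 in clone 1 and 0.49 and -0.08 in clone 2. Among members of 55% GC or more, 17 rose and 2 fell of 65, and of the 12 under 40% none rose by edgeR's test (2 were higher at an unadjusted p under 0.05, none by DESeq2) and 2 fell. Genes of at least 1 CPM showed the same order. At 55% or more, 1015 rose and 102 fell of 4543 (24.6% called, 29.2% of members). Under 40%, 33 rose and 493 fell of 1597 (32.9% called, 16.7% of members). With a GC correction per library, 32 members rose and 9 fell, with a median of 0.08, where 1543 of all 20747 features rose and 1644 fell (median -0.01). In the members of 55% GC or more the counts became 3 and 4, and 470 and 641 in genes of that GC content at 1 CPM or more. Of the 44 members that rose, 25 were still called, and of the 6 that fell, 5. Column names of the table carry 2 ranges of numbers, 1 to 5 and 11 to 13, and the second range holds knockout libraries only. With numbers 1 to 5 alone (3 wild type, 1 library of each clone), 33 members rose and 10 fell, and 2296 of all features rose and 2600 fell. Of the 44 members that rose with all libraries, 28 were called again. Leaving out wild type replicate 1 left 14 that rose and 2 that fell, replicate 2 left 22 and 3, and replicate 3 left 21 and 5. Counts over all features in these fits are not given here. A loss of calls particular to the members therefore cannot be read from them.

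Other noncoding classes named after a neighbour were counted in the same fit. Of 145 divergent transcripts (symbols ending in -DT, which start beside a gene and run away from it) at 1 CPM or more, 23 rose and 4 fell, with a median of 0.19. Called were 18.6% of the 145, near the 18.0% of all features. Of 10 intronic transcripts (-IT) and 6 overlapping transcripts (-OT), none was called by edgeR's test or DESeq2, and at an unadjusted p under 0.05 there was 1 RNA, an -IT that was lower. The 262 tested sense genes of the members split evenly, with 34 that rose and 30 that fell and a median of 0.00. Of the sense genes 24.4% were called, a larger share than the 17.5% of the members. Their median level was higher too, at 38.3 CPM against 3.47 CPM of the members. Among all genes at 20 CPM or more, 22.05% were called. Antisense symbols under 1 CPM had 283 tested rows, of which 21 rose and 3 fell (8.48% called). A minimum count that a gene can pass through 1 group chose those rows.

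Split by arrangement, the share of members called (17.3% with shared exon bases, 16.7% with overlapping spans, 17.9% head to head) was near the 18.0% of all features in each. Of 220 members that share exon bases with the sense gene, 36 rose and 2 fell, with a median of 0.15. Of 30 with overlapping spans only, 4 rose and 1 fell (0.10). Of 28 head-to-head members, 2 rose and 3 fell (0.02), and the difference between the arrangements was not tested. Of the 50 members that share no exon bases with any gene on the other strand, 6 rose and 4 fell, also near that share.

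PKN2-AS1 had the largest change of any member. It lies on chromosome 1 (GENCODE 29 on GRCh38, 87620803 to 88685204, minus strand), opposite PKN2, a protein kinase gene. It starts 982 bases inside PKN2, crosses the start of PKN2 at 88684222 and runs on beyond it, and the exons of the 2 genes share no bases. Its level was 6.13, 3.97 and 4.53 CPM in wild type, 1.06, 0.939 and 0.790 CPM in clone 1 and, for clone 2, 0.743 and 0.765 CPM. The groups did not overlap, and both clones lay at about the same level (log2 fold change -2.55, SE 0.17, adjusted p = 3.67e-07, edgeR's quasi-likelihood test). All knockout libraries but 1 lay under 1 CPM. PKN2-AS1 thus met the limit of 1 CPM through its wild type libraries, so its calls, that of its ratio included, are a description. PKN2 itself fell far less, from 113.3 to 121.1 CPM in wild type to between 86.2 and 106.6 CPM in the knockout (log2 fold change -0.29, adjusted p = 0.0139). The PKN2 value became -0.14 with GC correction, with an adjusted p of 0.0776. The log2 ratio of PKN2-AS1 to PKN2 fell by 2.16 (SE 0.19, adjusted p = 1.69e-08, limma). In the single-end pair PKN2-AS1 had 4.89 CPM in wild type and 0.921 CPM in the knockout.

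SNTG2-AS1 fell in both clones, and further in clone 2. It lies head to head with SNTG2, a syntrophin that links membrane proteins to the dystrophin complex, on chromosome 2 (949627 to 950274, minus strand). It had 10.3, 10.3 and 11.1 CPM in wild type, 7.83, 7.65 and 9.13 CPM in clone 1 and, for clone 2, 6.07 and 5.10 CPM (log2 fold change -0.65, SE 0.094, adjusted p = 3.83e-04, edgeR). The 3 groups fell into 3 levels without overlap. SNTG2 fell with it, from 7.35 to 7.99 CPM in wild type to 5.65 to 6.64 CPM in clone 1 and, for clone 2, 4.31 and 5.57 CPM (log2 fold change -0.47, adjusted p = 0.00747), and their ratio was not called (log2 -0.17, adjusted p = 0.408, limma).

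The other 4 members that fell changed less. KTN1-AS1, beside the kinesin-binding protein gene KTN1, had 2.69 to 3.62 CPM in wild type and 1.72 to 2.46 CPM in the knockout (log2 fold change -0.57, SE 0.14, adjusted p = 0.0142, edgeR). MNX1-AS1, beside the motor neuron homeobox gene MNX1, had 4.71 to 5.75 CPM in wild type, 3.21 to 3.50 CPM in clone 1 and, for clone 2, 4.02 and 4.80 CPM, so clone 2 overlapped wild type (log2 fold change -0.47, adjusted p = 0.0106). SLC16A4-AS1 (log2 fold change -0.19) and EPB41L4A-AS1 (-0.16) passed the threshold narrowly, with adjusted p of 0.0419 and 0.0484. SLC16A4-AS1, with 35.0% GC, turned to 0.02 with GC correction. KTN1-AS1 and SLC16A4-AS1 are named to complete the count, after their values were seen.

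Of the members that rose, SLIT3-AS2 rose most. It met the limit of 1 CPM through its knockout libraries, so its calls are a description. It lies in SLIT3, the gene of a secreted guidance ligand of ROBO receptors, on chromosome 5 (168706567 to 168720884, plus strand), and 6.21% of its exon bases are shared with SLIT3 exons. It had 0.641, 0.485 and 0.461 CPM in wild type, 1.30, 1.32 and 1.38 CPM in clone 1 and, for clone 2, 1.96 and 1.74 CPM (log2 fold change 1.56, SE 0.20, adjusted p = 1.20e-04, edgeR). Each knockout library was above each wild type library, and clone 2 was above clone 1, a difference that did not pass the test (adjusted p = 0.46). SLIT3 was not called (14.5 to 15.9 CPM in wild type, 15.1 to 20.3 CPM in the knockout), and the antisense-to-sense log2 ratio rose by 1.36 (SE 0.20, adjusted p = 1.17e-04, limma).

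DLGAP1-AS2 rose within the span of DLGAP1, a scaffold gene of the postsynaptic density, with no exon bases shared. DLGAP1-AS2 too met the limit of 1 CPM through its knockout libraries, so its calls are a description. Its level was 0.451, 0.599 and 0.824 CPM in wild type, 1.33, 1.77 and 1.70 CPM in clone 1 and, for clone 2, 1.16 and 2.08 CPM (log2 fold change 1.38, SE 0.26, adjusted p = 0.00254, edgeR). DLGAP1 stayed between 15.4 and 19.3 CPM in all 8 libraries, and the ratio rose by 1.31 (SE 0.23, adjusted p = 5.82e-04, limma).

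RUNDC3A-AS1 had 0.404, 0.542 and 0.606 CPM in wild type, 1.54, 1.39 and 1.48 CPM in clone 1 and, for clone 2, 1.19 and 0.999 CPM (log2 fold change 1.29, SE 0.21, adjusted p = 0.00101, edgeR). RUNDC3A, which encodes a RUN-domain protein of neurons, was rarer than its antisense RNA, with 0.0571 to 0.0727 CPM in wild type and 0.234 to 0.469 CPM in the knockout (log2 fold change 2.20, SE 0.50, adjusted p = 0.00794). RUNDC3A had 8 counts in all over the 3 wild type libraries and passed the minimum count through the knockout libraries, so its call is a description. The call of RUNDC3A-AS1 is a description as well, because it met the limit of 1 CPM through its knockout libraries. RUNDC3A-AS1 shares 4.16% of its exon bases with RUNDC3A.

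SOCS2-AS1 and its sense gene both rose. SOCS2 is a feedback inhibitor of cytokine and growth hormone signalling. SOCS2-AS1 had 15.8, 15.7 and 15.2 CPM in wild type, 25.6, 27.7 and 29.1 CPM in clone 1 and, for clone 2, 21.7 and 26.5 CPM (log2 fold change 0.72, SE 0.076, adjusted p = 2.16e-05, edgeR). SOCS2 had 83.4 to 88.4 CPM in wild type and 117.8 to 126.1 CPM in the knockout (log2 fold change 0.51, SE 0.045, adjusted p = 4.87e-06). The ratio was not called (log2 0.21, adjusted p = 0.159, limma), and 7.26% of the exon bases of SOCS2-AS1 are shared.

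TNS2-AS1, named after the focal adhesion gene TNS2, had 1.47, 0.742 and 1.19 CPM in wild type, 1.99, 1.95 and 2.69 CPM in clone 1 and, for clone 2, 2.30 and 2.00 CPM (log2 fold change 0.92, SE 0.21, adjusted p = 0.00887, edgeR). FBXL19-AS1, beside the gene of a CpG island-binding F-box protein, had 2.84 to 3.42 CPM in wild type and 4.64 to 5.17 CPM in the knockout (log2 fold change 0.66, adjusted p = 0.00108). FOXD2-AS1, near the forkhead gene FOXD2, had 8.43 to 9.70 CPM in wild type, 12.6 ± 0.61 CPM in clone 1 (SD, n = 3) and 13.1 and 14.0 CPM in clone 2 (log2 fold change 0.56, adjusted p = 3.81e-04). In all 3 the wild type and knockout libraries did not overlap. Of the 12 with the largest rises among those called in both clones without overlap, the others were FAM131B-AS2 (log2 fold change 0.79), KMT2E-AS1 (0.64), TMEM44-AS1 (0.62), PRKCZ-AS1 (0.60) and ATP6V0E2-AS1 (0.56). FAM131B-AS2 is annotated on the same strand as FAM131B, so its name is not borne out by that annotation.

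**Figure D2:**
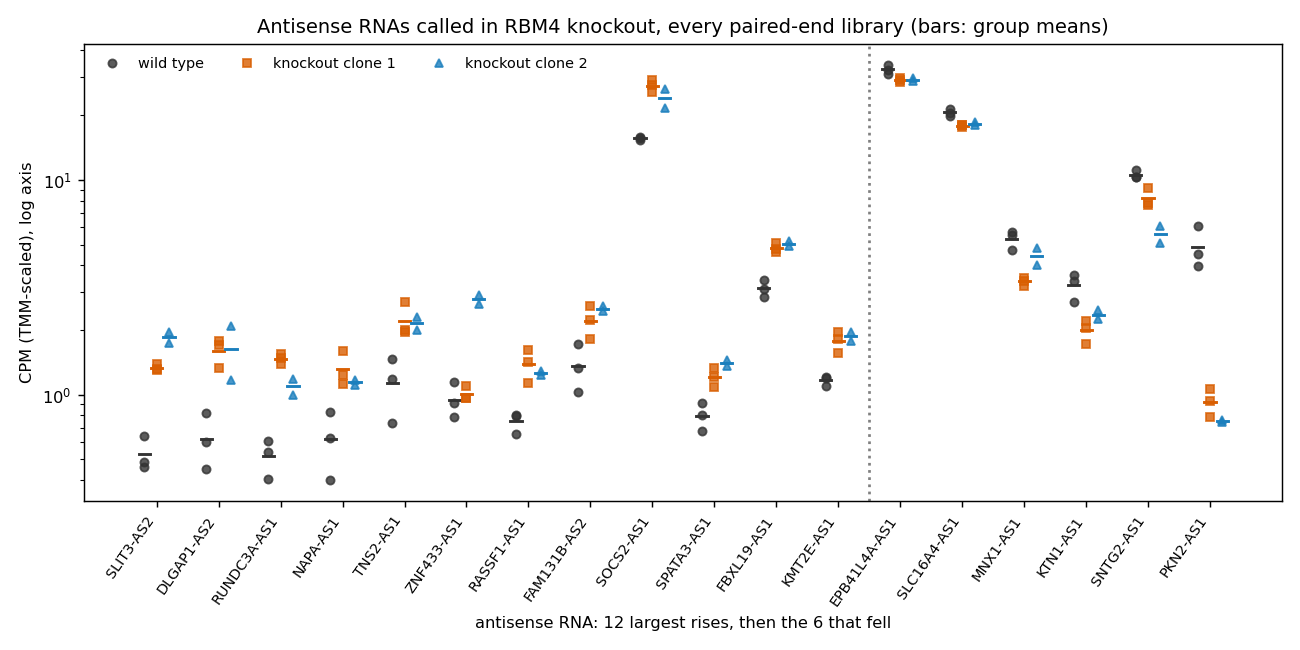
CPM (TMM-scaled, log axis) in each of the 8 paired-end libraries for the 12 called members with the largest rise, whether or not called in both clones, and, right of the dotted line, the 6 that fell; points are libraries and bars are group means. PKN2-AS1 lies at 3.97 to 6.13 CPM in wild type and at 0.743 to 1.06 CPM in the knockout, while most of the rises are between neighbouring levels of 0.4 to 3 CPM.

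Clone 2 against clone 1 gave 3 called members, where 2.09% of all features were called. ZNF433-AS1 had 0.783 to 1.14 CPM in wild type, 0.963 to 1.10 CPM in clone 1 and, for clone 2, 2.92 and 2.66 CPM (clone 2 minus clone 1 log2 1.45, adjusted p = 8.97e-04, edgeR). It counts among the 44 that rose through clone 2. KHDC1-AS1 had 1.45 to 1.83 CPM in wild type, 2.18 to 3.04 CPM in clone 1 and, for clone 2, 1.14 and 0.999 CPM (log2 -1.23, adjusted p = 0.00597). The third was SNTG2-AS1 (log2 -0.56, adjusted p = 0.028). MAGI2-AS3 is an example where the sense gene, a membrane scaffold, differed between clones: MAGI2 had 5.88 to 6.16 CPM in wild type, 7.18 to 7.67 CPM in clone 1 and, for clone 2, 1.91 and 2.02 CPM (clone 2 minus clone 1 adjusted p = 6.56e-07), while MAGI2-AS3 had 0.913 to 0.950, 1.15 to 1.41, and 0.718 and 0.765 CPM (adjusted p = 0.149).

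Antisense RNAs and their sense genes mostly did not change together. Of 263 pairs, 41 had an antisense RNA that rose, and in these the sense gene rose in 5, fell in 2 and was not called in 34. Of the 6 pairs with an antisense RNA that fell, the sense gene fell in 2, rose in none by edgeR's test (also none at an unadjusted p under 0.05 and by DESeq2) and was not called in 4. Where the antisense RNA was not called, 30 sense genes rose and 26 fell, and in 160 pairs neither gene was called. The 5 pairs in which both were called higher are those of RUNDC3A, SOCS2, SPINT1 (log2 fold change 0.40), TRHDE (0.55) and NAPA (0.20), and the 2 that fell together are those of PKN2 and SNTG2. The opposite pairs are ALDH1A3 and HSDL2. RUNDC3A passed the minimum count, and RUNDC3A-AS1 and NAPA-AS1 (mean 0.620 CPM in wild type) the limit of 1 CPM, through knockout libraries. PKN2-AS1 met that limit through its wild type libraries. Those pairs are therefore a description. NAPA lost its call with GC correction (log2 fold change 0.06, adjusted p = 0.469, edgeR), while RUNDC3A, SOCS2, SPINT1 and TRHDE kept theirs. Across pairs, Spearman's rho of the log2 fold changes was 0.17 over all 263, 0.20 over 203 with shared exon bases, 0.06 over 28 head to head and -0.08 over 26 with overlapping spans only. All values of 1 comparison share the same libraries.

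A direct test of the antisense-to-sense ratio in each library called 34 members higher and 13 lower of 263 (limma, adjusted over 513 pairs, of which 12.7% were called). Of the 34, 21 had an antisense RNA that rose and 12 a sense gene that fell, and in 3 neither gene was called. Of the 13, 1 had an antisense RNA that fell (PKN2-AS1) and 9 a sense gene that rose, and in 3 neither was called. Ratios that fell thus mostly went with a sense gene that rose: FMNL1, a formin of blood cells, had 0.314 to 0.533 CPM in wild type and 0.867 to 1.34 CPM in the knockout, while FMNL1-AS1 stayed at 0.776 to 1.34 CPM, and the ratio fell by 1.04 (SE 0.28, adjusted p = 0.0251, limma). THBS3, a thrombospondin, had 1.08 to 1.52 CPM in wild type and 2.13 to 2.91 CPM in the knockout, and its ratio fell by 0.78 (adjusted p = 0.0185). FMNL1-AS1 shares 48.15% and THBS3-AS1 41.65% of its exon bases with the sense gene, whose reads may not have been told apart. Under other settings of the test, the FMNL1-AS1 ratio kept its call in 8 of 13 and the THBS3-AS1 ratio in 9 of 14.

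Ratios that rose came from both sides. ALDH1A3, a retinoic acid-forming enzyme, fell from between 11.2 and 12.2 CPM to between 7.61 and 9.67 CPM while ALDH1A3-AS1 rose from between 2.40 and 3.62 CPM to between 3.90 and 4.51 CPM (ratio log2 0.82, SE 0.15, adjusted p = 7.98e-04, limma). HSDL2-AS1 (0.82), TAF1A-AS1 (0.80), NAPA-AS1 (0.78) and RASSF1-AS1 (0.77) followed. RASSF1-AS1, named after a tumour suppressor scaffold, has 83.4% of its exon bases in exons of RASSF1, and RASSF1 lay between 18.6 and 20.8 CPM in all 8 libraries. The count of called ratios fell from 47 to 12 when limma was run without its trend of the spread on level, and to 30 with a term for the column number range.

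**Figure D3:**
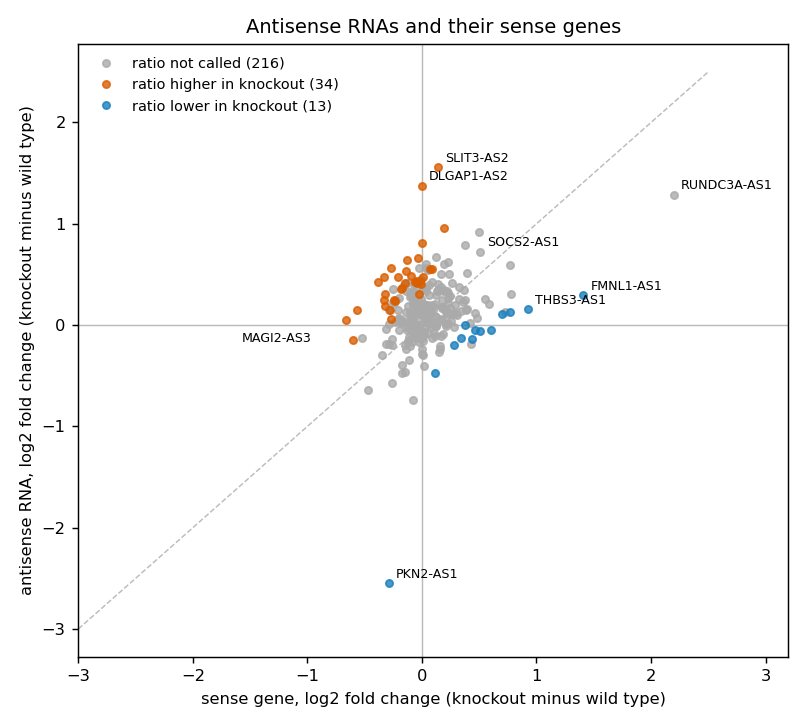
Log2 fold change (mean of the knockout clones minus wild type) of each antisense RNA (vertical) against its sense gene (horizontal) for 263 pairs, coloured by the test of the antisense-to-sense ratio, with the line of equal change dashed. PKN2-AS1 lies far under the line at -2.55 with PKN2 at -0.29, and SLIT3-AS2 and DLGAP1-AS2 lie above it with sense genes near 0.

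A list of 75 antisense RNAs with a name in the literature had 31 measured members, of which 2 rose, 2 fell and 27 were not called, with a median log2 fold change of 0.04. Of all features, 18.0% were called. DLX6-AS1, known from mouse forebrain as Evf2, had 9.83 to 11.8 CPM in wild type and 11.2 to 15.6 CPM in the knockout, with overlap (log2 fold change 0.32, adjusted p = 0.0416, edgeR). GABPB1-AS1 had 167 to 179 CPM in wild type and 182 to 207 CPM in the knockout (log2 fold change 0.17, adjusted p = 0.0452). The pair that fell, EPB41L4A-AS1 and MNX1-AS1, is given above.

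The single-end table showed a level for some members that the paired-end table did not. Over all 286, the wild type level in the single-end table was a median 0.968 times that in the paired-end table, but 15 members were at least 4 times higher. All 15 share exon bases with their sense gene, and of the 65 that share none with it, the highest value was 3.09 times. TUBA1B-AS1 had 3.07 CPM in paired-end and 469.7 CPM in single-end wild type, and 80.2% of its exon bases lie in exons of TUBA1B, a tubulin gene with 1871 CPM. MIF-AS1 had 1.31 and 53.3 CPM, with 46.5% of its exon bases in exons of the cytokine gene MIF (299 CPM). VIM-AS1 had 2.20 and 75.5 CPM, with 32.2% in exons of vimentin (466 CPM). These 3 are abundant sense genes, and in the paired-end table their antisense RNAs had 1.88, 0.886 and 1.11 CPM per kb beside 523, 270 and 90.4 CPM per kb of the sense genes. Across 204 members with shared bases and a sense level above 0, the ratio of the tables rose with the sense level on shared bases relative to the antisense level (Spearman's rho 0.40, across genes). Set against the named sense gene alone, the pattern did not hold in every one of the 15. Levels of other genes on the opposite strand were not compared. RUSC1-AS1 had 1.55 CPM in the paired-end and 62.2 CPM in the single-end wild type beside RUSC1 at 51.7 CPM, of which 3.79 CPM would fall on the shared bases if its counts were spread evenly. TNS2-AS1 had 1.13 and 34.1 CPM beside TNS2 at 1.26 CPM. Whether the 2 tables were counted with different strand settings was not tested. The members in this paragraph were chosen after their values were seen, apart from MIF-AS1 and VIM-AS1.

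**Figure D4:**
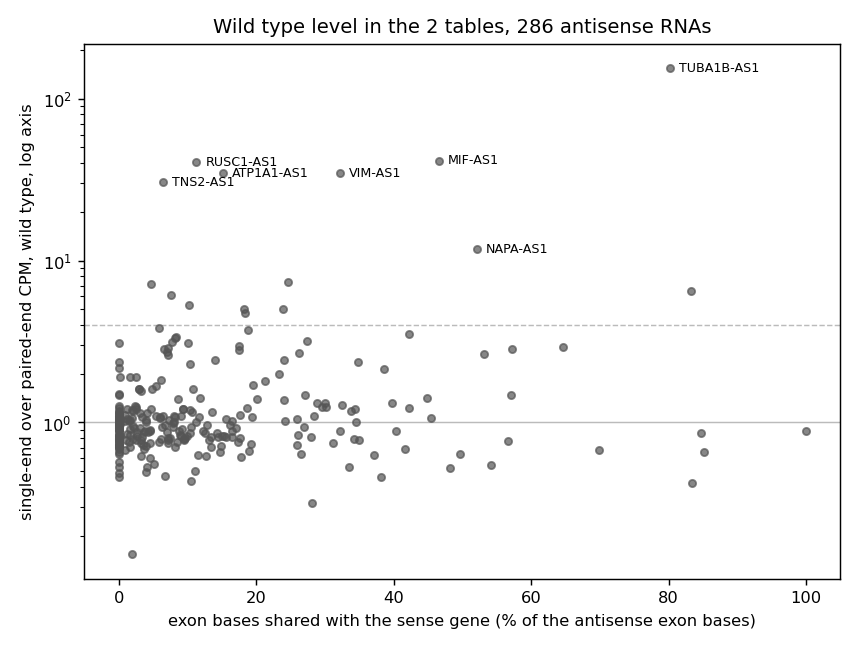
Ratio of the single-end to the paired-end wild type level (CPM, log axis) for 286 antisense RNAs against the percent of their exon bases shared with the sense gene, with ratios of 1 (solid) and 4 (dashed) marked. All 15 members above 4 share exon bases with the sense gene, and TUBA1B-AS1 is highest.

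For the comparison of knockout with wild type, the single-end pair has 1 library a group and no test. Of the 44 members that rose, 41 were also higher in the single-end knockout (93.2%, against 90.2% of all features that rose), and of the 6 that fell, 5 were lower (83.3%, against 79.1%). The exception among the 6 was SLC16A4-AS1, with 14.0 CPM in wild type and 17.3 CPM in the knockout. Of the 42 risers whose 2 tables differed by less than 4 times, 39 were higher. Beyond 4 times were TNS2-AS1 and NAPA-AS1. TNS2-AS1 had 34.1 and 35.1 CPM in the single-end pair, where the paired-end libraries showed 0.742 to 2.69 CPM. Over all members the median single-end log2 fold change was 0.15 and 74.8% were higher in the knockout, against 0.04 and 57.6% of all features. SLIT3-AS2 had 0.952 and 2.88 CPM, DLGAP1-AS2 0.657 and 1.72 CPM, and SOCS2-AS1 15.9 and 26.3 CPM, all higher in the knockout.

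One motif of RNA bound by RBM4 was about as common in members as in other genes. GCGCG, a core that RBM4 is known to bind, was in the longest GENCODE 29 transcript of 147 of the 286 members (51.4%) and of 10062 of 19549 tested genes (51.5%). It was in 56.8% of the 44 members that rose, which had a median GC of 53.4%, in 2 of the 6 that fell and in 50.8% of those not called. Per kb of transcript the order differed: 0.45 matches in members that rose, 0.381 in those that fell and 0.487 in those not called. All tested genes had 0.465 per kb. A match of letters is no binding site, and transcripts were searched on their own strand only.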

How the data were processed

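The authors deposited whole-number counts per gene and per repeat family, not normalized, in 1 table of 8 paired-end and 1 table of 2 single-end libraries. The submitters' processing notes name STAR 2.5.2a and the hg38 (GRCh38) build, and TEToolkit, the counter, appears in the deposited tables' names. Its strand setting and its annotation release: not given in the sources used here. Per the labels' protocols, a stranded mRNA kit was used on 65 ng of RNA.

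Members, lists and tests were chosen with earlier results of these data known. Symbols came from a gene name table (56948 matches), otherwise from GENCODE 29 (57447 matches), which also gave coordinates. Counts were filtered (filterByExpr, 20747 features left), TMM-scaled and tested with edgeR 4.0.16 (robust quasi-likelihood F test, 1 mean per group, Benjamini-Hochberg over all features). Log2 fold changes set the mean of both clones against wild type where no other contrast stands beside them. Levels were expressed as CPM on TMM-scaled library sizes, except in the choice of members, for RBM4 and the markers, and in the single-end table, where raw totals were used. Antisense-to-sense ratios were log2 of CPM (prior count 2) per library, tested with limma 3.58.1 (trend, robust) over 513 pairs. DESeq2 1.42.0 was an alternative, in R 4.3.3. The GC correction was a spline (df 6) per library.

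Named members were, by rule, up to 12 with the largest rise and up to 12 with the largest fall, called in both clones without overlap (only 2 had fallen), those called between clones, the 8 highest per kb in wild type, the 10 largest called ratios and the measured members of the literature list. Other names were chosen after their values were seen.

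In simulated counts for the mean of the clones (20333 features), edgeR called 67 of 98 features changed 1.5-fold and 15 of 20144 unchanged ones. It called 54 of 91 changed 2-fold, all of them antisense rows and mostly rare. The simulated counts held no shift with GC content, so they cannot show how often such a shift gives a call. For the ratio (497 pairs), limma called 67 of 88 changed 2-fold and 4 of 407 unchanged. The replicate numbers were judged not to pair the samples: deviations of same-numbered wild type and knockout libraries had correlations of -0.344 to 0.096.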

Additional observations from a re-analysis of the deposited data

Results flagged for a closer look

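For 3 members the difference from wild type was not the same in the 2 knockout clones, by edgeR's quasi-likelihood test of clone 2 against clone 1 over all features. ZNF433-AS1 was higher in clone 2 than in clone 1 by 1.45 on the log2 scale (adjusted p = 8.97e-04). KHDC1-AS1 had a clone 2 minus clone 1 log2 value of -1.23 (adjusted p = 0.00597), and SNTG2-AS1 one of -0.56 (adjusted p = 0.028). Each clone is 1 isolate, with 3 and 2 libraries.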

How the results depend on the processing

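Of the 50 members called for the mean of the clones, 12 kept direction and call under all 17 alternatives: ATP6V0E2-AS1, DLGAP1-AS2, ERCC6L2-AS1, FBXL19-AS1, FOXD2-AS1, PKN2-AS1, RUNDC3A-AS1, SLIT3-AS2, SNTG2-AS1, SOCS2-AS1, TMEM44-AS1 and TNS2-AS1. Of these, DLGAP1-AS2, RUNDC3A-AS1 and SLIT3-AS2 met the limit of 1 CPM through their knockout libraries, and PKN2-AS1 through its wild type libraries. The other 38 called members lost the call in at least 1 alternative. SLC16A4-AS1 reversed, to 0.017 with GC correction and to 0.023 with the replicate block and GC correction, and the cause was not tested. Of 10 named ratios, 4 kept their call throughout. The count of 50 became 36 with DESeq2, 53 with upper-quartile factors, 58 without a filter and 41 with GC correction. It was 21 of the 93 members of at least 5 CPM and 10 of the 50 that share no exon bases with the other strand, where fewer members were counted. Leaving out single libraries gave 16 (without wild type replicate 1) to 54 for the mean, 13 to 38 for clone 1 (43 with all), 9 to 28 for clone 2 (25), 2 to 3 between clones (3) and 23 to 44 ratios (47). For clone 1, the block with GC correction gave 28, column numbers 1 to 5 alone 23, and members of at least 5 CPM 17. For clone 2, DESeq2 gave 16, and members of at least 2 and 5 CPM 14 and 9. Between clones, a term for the column number range gave 5, and numbers 1 to 5 alone, annotation symbols and members of at least 2 and 5 CPM gave 1 each. The ratios gave 12 without limma's trend, 12 without shared exon bases (59 pairs) and 30 with the column number term. The column number settings were chosen after seeing the data. Counts in this section are of members or their ratios only. Apart from the GC correction and column numbers 1 to 5, given above, shares over all features under the same settings are not given here. The counts therefore describe how stable the calls were and no trait of the members.

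With a replicate block, although the numbers do not pair the samples, the counts were 52 for the mean, 47 for clone 1, 21 for clone 2, 2 between clones and 37 ratios; same-numbered libraries of the 2 clones had correlations of 0.467 and 0.415.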
